A study of Homo sapiens with 4 samples.

Results

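Homeobox genes encode transcription factors that hold a homeodomain, a DNA-binding fold that recognises short motifs around the letters TAAT. They are best known for laying out the body plan and for specifying cell types in the embryo. In blood cells the HOX genes of several clusters are active in stem and progenitor cells and are silenced as cells mature, while most homeobox genes of other families are known from nervous system, limb, gut, kidney or endocrine tissue. Fusions of MLL are known to keep genes of the HOXA cluster and their TALE partner MEIS1 active in acute leukemia. The genes described here are homeobox genes of 17 families that were taken by name from the array, namely the clusters HOXB, HOXC and HOXD and the families LHX, NKX, DLX, sine oculis (SIX2, SIX3 and others), PAX, POU, IRX, ALX, PITX, OTX, GSX, MSX, PRRX and ZFHX, with HOXA left out. The IRX genes are themselves of the TALE class, and some PAX proteins lack a full homeodomain, so the set is defined by gene name and not by protein structure. Of 109 such genes on the array, 63 had at least 1 analysed probe, out of 17938 genes with a symbol and an analysed probe in all.

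The cells were THP1, a line from an acute myeloid leukemia of subtype M5 that carries the MLL-AF9 fusion. On days 0, 3 and 6 they received siRNA against MLL-AF9 (siRNA-A or siRNA-B) or either of the non-targeting control siRNA-1 and control siRNA-2, and RNA was harvested on day 8. All cells were moved to a medium with little serum on day 6. Each siRNA had 1 single-colour array with pooled RNA of 5 experiments, so 2 knockdown arrays were compared with 2 control arrays. The pooling leaves only the spread between pools in the errors given below. The arrays shared 1 slide with siRNA-B and siRNA-A at its first positions, so treatment and slide position cannot be told apart. With 2 arrays against 2 the smallest two-sided exact permutation p is 0.333, whereas limma can go lower because it borrows variance information across probes.

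Levels are log2 intensities of the deposited, unnormalized signal, and log2FC is the difference of knockdown minus control arrays on that scale, fitted with the deposited spot weights. It departs from the plain difference of group means by over 0.005 in 2 members, HOXD1 and SIX6. In bulk RNA, fewer cells that use a gene and less RNA of it in every cell cannot be told apart. Median log2 intensity ranged from 8.56 to 8.65 over the arrays. Of analysed spots 92.2% and 90.6% were well above background with siRNA-A and siRNA-B, against 96.2% and 96.1% with control siRNA-1 and control siRNA-2. The targeted transcript has no probe of its own here. A probe of MLLT3, the gene of AF9, lay at 6.82 and 6.87 with siRNA-A and siRNA-B and at 7.59 and 7.61 in the controls (log2FC -0.76, limma adjusted p = 0.0639). The other MLLT3 probe was called too (log2FC -0.63, adjusted p = 0.182), and of 4 MLL probes none was. The MLL probe nearest to a call read 10.55 and 10.64 after knockdown and 10.95 and 11.08 in controls (log2FC -0.41, adjusted p = 0.403), and the others had log2FC from -0.08 to 0.05. All 9 analysed marker genes of myeloid cells were well above background on every array, among them CD33, CD68 and MPO, and none had an unadjusted p under 0.05. The 3 T cell markers CD2, CD3D and CD3E were above background too, but only at 5.70 to 6.44. The 5th percentile of analysed spots was 5.39 to 5.43 over the arrays. Summed log2 intensities were 7.49 to 7.64 for these 3 markers and 16.23 to 16.34 for the 9 myeloid markers. Of 3 erythroid markers all had a log2FC above 0 and none was called, HBB having an unadjusted p under 0.05 (log2FC 0.39, adjusted p = 0.490, 1 array above background). On all arrays 3 of 4 B cell markers (CD79A and CD79B among them), 2 of 2 neuronal (TUBB3 and SNAP25), 1 of 3 mesenchymal (COL1A1) and 0 of 2 epithelial markers were above background. None of these was called. The part of these markers in the homeobox results was not tested.

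Few of the homeobox genes differed between knockdown and control arrays. At an unadjusted p under 0.005 in limma, the threshold for a call, 4 of 63 members were called, which is 6.35% against 1.33% of all genes. LHX9, HOXC4 and OTX1 fell and DLX1 rose. At an unadjusted p under 0.05 there were 9 members, 14.3% against 8.00% of all genes. Of these, 5 were lower (7.94% against 4.74%), with IRX3 and PITX1 beside the called genes, and 4 were higher (6.35% against 3.26%), among them ALX4 and DLX2 beside DLX1. Only LHX9 kept an adjusted p under 0.05 over all 26219 probes. The knockdown arrays both read lower than either control in 18 members, 28.6% against 21.2% of all genes, and above them in 11, 17.5% against 15.0%. The median log2FC was -0.07 over the members and -0.02 over all genes, with 38 members below 0 and 25 above. For 60 of 63 members the 95% interval of log2FC stayed between -1 and 1, the others being LHX9, HOXC4 and HOXB6.

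**Figure D1:**
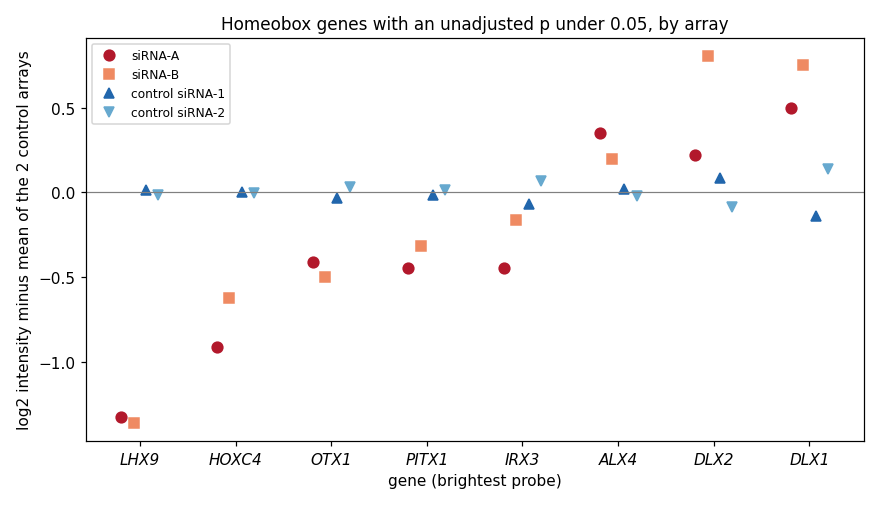
Shown are 8 of the homeobox genes with an unadjusted p under 0.05 in limma, with the log2 intensity of each array minus the mean of the 2 control arrays on the vertical axis. Both knockdown arrays of each gene shown lie on 1 side of both control arrays, and LHX9 is the lowest in both, at -1.32 with siRNA-A and -1.35 with siRNA-B.

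The changes in LHX9, HOXC4, OTX1 and DLX1 rest on the following probes, which are printed so that the detected part of each transcript is known. Each probe is 60 bases long, its central 30 bases are given 5′ to 3′, and positions are those of the array design on build hg19, plus strand. Both LHX9 probes lie on chromosome 1, at 197896795 to 197896854 and at 197898298 to 197898357. The HOXC4 probe lies on chromosome 12 at 54449755 to 54449814 and the DLX1 probe on chromosome 2 at 172953991 to 172954050. The OTX1 probes lie on chromosome 2 at 63284189 to 63284248 and at 63280119 to 63280178. No annotation of that build was used here, so exon and UTR positions are not given.
LHX9, first probe: aagcatcaccagctccggaccatgaaatcc
LHX9, other probe: tgacatccgtgacctctaacatggacagcc
HOXC4: atgccccgtgatcaataataaaccagtgga
DLX1: gctttacaacaatccctagaggctcgacca
OTX1, first probe: tggttgaactgaacatatcttgtcttagca
OTX1, other probe: ttacctcaaacaacccccatacggcatgaa

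LHX9, a LIM-homeodomain factor known from gonad, limb and brain development, had the largest change among the 63 members. Its brighter probe read 6.99 with siRNA-A, 6.95 with siRNA-B, 8.32 with control siRNA-1 and 8.29 with control siRNA-2. The groups did not overlap and the arrays of each group lay within 0.035 of each other, while log2FC was -1.34 (standard error 0.11, adjusted p = 0.0219 in limma), a 2.53-fold reduction. The other probe, 1.4 kb further along the gene, read 5.59 and 5.77 after knockdown and 6.32 and 6.48 in controls, with a log2FC of -0.72 (standard error 0.12, adjusted p = 0.129). Both probes passed the threshold for a call. LHX9 was called under each of 12 alternative settings, with log2FC from -1.65 to -1.16. Its adjusted p stayed under 0.05 in 3 of them (without weights, with a variance trend and with a filter on dim probes), and over all 12 it ranged from 0.00423 to 1 in limma.

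None of the other 3 analysed LIM-homeodomain genes was called. LHX1, which acts in kidney and head formation, read 6.00 and 6.23 with siRNA-A and siRNA-B and 6.29 and 6.27 in controls (log2FC -0.17, adjusted p = 0.798). LHX2, a factor of forebrain, eye and hair follicle, read 8.07, 8.20, 8.16 and 8.39 in the same order, with overlapping groups and a log2FC of -0.14 (adjusted p = 0.830). LHX3, which directs pituitary and motor neuron fate, read 11.15 and 11.33 after knockdown, 11.23 with control siRNA-1 and 10.48 with control siRNA-2. Its log2FC of 0.38 (adjusted p = 0.729) came with control arrays 0.75 apart and was 0.0097 without control siRNA-2 and 0.76 without control siRNA-1, in neither case with a call. LIM-homeodomain proteins work with the adaptors LDB1 and LDB2, with SSBP proteins that stabilise them, and against the LIM-only proteins LMO1 to LMO4. Of 9 such partners analysed, none was called in limma and none reached an unadjusted p under 0.05 in either direction. LMO2, a regulator of blood stem cells, read 14.09, 14.51, 14.39 and 14.30 (log2FC -0.04).

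Among the HOX genes outside HOXA, which pattern the body axis, HOXC4 was the only called member. Its probe read 6.86 with siRNA-A, 7.14 with siRNA-B, 7.77 with control siRNA-1 and 7.76 with control siRNA-2. Both knockdown arrays were lower than both controls, by 0.91 and 0.62 from the control mean, and log2FC was -0.76 (standard error 0.13, adjusted p = 0.123), a 1.70-fold reduction. HOXC4 was called in 10 of 12 alternatives and not when either control array was left out.

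No other gene of the HOXC cluster was called. HOXC6 read 9.58, 9.25, 8.81 and 9.46 with overlapping groups (log2FC 0.28, adjusted p = 0.805), and its 2 controls were over 0.5 apart. HOXC9 read 7.54 and 7.81 after knockdown and 7.85 and 7.84 in controls (log2FC -0.17, adjusted p = 0.802), the siRNA-B array lying only just below the controls. HOXC10 had overlapping groups and a log2FC of 0.05. HOXC8 was well above background on both control arrays and on neither knockdown array, and its groups overlapped (log2FC -0.19, adjusted p = 0.816, and 0.034 without control siRNA-2). No direction is given for HOXC8, since control siRNA-1 (5.36) read the same as siRNA-A. The probes of HOXC6 and HOXC4 are 25160 bases apart and had log2FC of opposite sign.

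In the HOXB cluster no member was called. HOXB6, a gene of erythroid and myeloid progenitors, read 7.40 with siRNA-A and 8.36 with siRNA-B, against 8.53 and 8.36 in controls. The siRNA-A array stood apart from the others, and log2FC was -0.56 overall (standard error 0.26, adjusted p = 0.647), -1.04 without siRNA-B and -0.08 without siRNA-A. HOXB6 is described beyond the rule for named genes, since its values were seen first. HOXB4, known for its effect on blood stem cell expansion, read 8.58, 8.70, 8.53 and 8.73, with a log2FC of 0.01 and a 95% interval from -0.27 to 0.29. HOXB2, HOXB9 and HOXB13 were lower without overlap by small amounts (log2FC -0.09, -0.14 and -0.26), and HOXB13 narrowly missed an unadjusted p of 0.05. HOXB9 was above background on the control arrays only and at least 1.07-fold higher there, a bound taken against the lowest signal well above background on the knockdown arrays. Fewer spots in general were well above background on the knockdown arrays, so detection in controls only is not particular to HOXB9. HOXB3 had overlapping groups (log2FC 0.17). Of the HOXD cluster only HOXD1 and HOXD9 were analysed, with log2FC of 0.03 and 0.11, and HOXD1 was well above background on 1 array. The other HOXD9 probe had the opposite sign (log2FC -0.17) with overlapping groups and 1 array above background, so the probes of HOXD9 disagree.

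**Figure D2:**
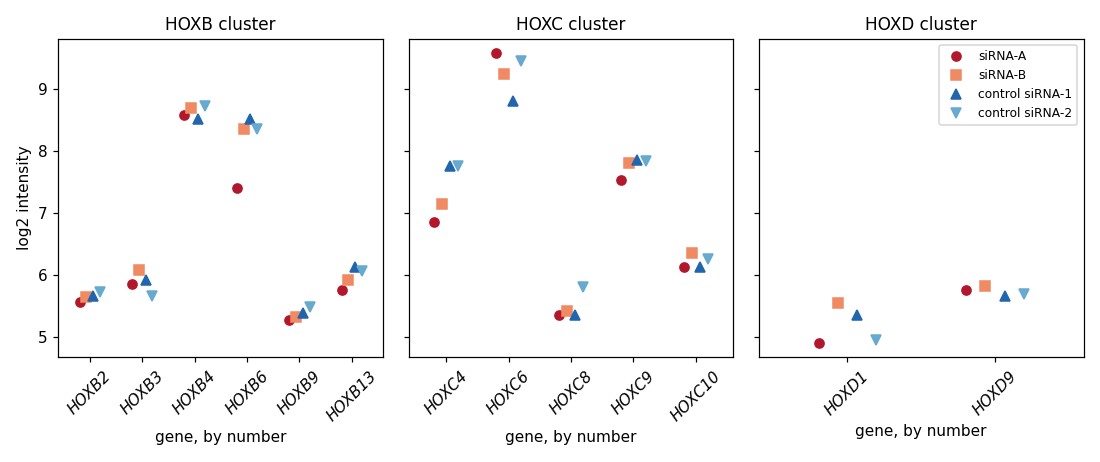
Log2 intensity on the vertical axis is shown for each array and for each analysed gene of the HOXB, HOXC and HOXD clusters, ordered by gene number. Knockdown and control arrays separate clearly at HOXC4, the siRNA-A array stands apart at HOXB6 (7.40), and levels of different genes are not comparable because each has its own probe.

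The HOXA cluster was outside the set and is given for comparison. Of its 9 analysed genes 9 were lower after knockdown, HOXA5 however only by -0.0029 and above 0 after quantile normalization or without siRNA-A or control siRNA-1, 2 were called (HOXA9, log2FC -0.56, and HOXA11, log2FC -0.50) and the median log2FC was -0.15. Over all genes 1.33% were called, 10086 of 17938 had a log2FC below 0 and the median was -0.02. Of 13 genes of the other clusters, 7 were lower and 6 higher. Whether the clusters differ was not tested. Among the TALE cofactors of HOX proteins, PBX3 was called (log2FC -0.51, adjusted p = 0.261) and MEIS1 was not (log2FC 0.32, adjusted p = 0.597, 3 arrays above background).

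DLX1 and DLX2, a neighbouring pair known from forebrain interneurons and from the jaw, were both higher after knockdown. DLX1 read 10.10 with siRNA-A and 10.35 with siRNA-B, against 9.46 and 9.74 in controls. The groups did not overlap, and log2FC was 0.62 (standard error 0.14, adjusted p = 0.252 in limma), a 1.54-fold rise. DLX1 was called in 6 of 12 alternatives, with log2FC from 0.48 to 0.76, and in none that left out an array or used the background-subtracted signal. DLX2 read 7.29 and 7.88 after knockdown and 7.16 and 6.99 in controls. It was not called (log2FC 0.51, standard error 0.18, adjusted p = 0.529), the siRNA-B array was 0.58 higher than the siRNA-A array, and log2FC was 0.22 without siRNA-B. DLX4, on another chromosome, had overlapping groups and a log2FC of -0.11 (adjusted p = 0.888).

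The starts of DLX1 and DLX2 are shown because both genes were higher together. The 250 bases before each start are printed 5′ to 3′ on the strand of the gene, from RefSeq on GRCh38.p14, with the letters TAAT or, on the other strand, ATTA in capitals. DLX1 is at chr2:172085257-172085506 on the plus strand and DLX2 at chr2:172102901-172103150 on the minus strand.
DLX1: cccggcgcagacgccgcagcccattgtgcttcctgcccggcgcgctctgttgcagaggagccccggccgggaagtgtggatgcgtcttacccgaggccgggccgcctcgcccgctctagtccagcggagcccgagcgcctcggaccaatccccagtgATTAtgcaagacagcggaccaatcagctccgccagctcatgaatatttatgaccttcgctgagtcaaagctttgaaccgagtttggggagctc
DLX2: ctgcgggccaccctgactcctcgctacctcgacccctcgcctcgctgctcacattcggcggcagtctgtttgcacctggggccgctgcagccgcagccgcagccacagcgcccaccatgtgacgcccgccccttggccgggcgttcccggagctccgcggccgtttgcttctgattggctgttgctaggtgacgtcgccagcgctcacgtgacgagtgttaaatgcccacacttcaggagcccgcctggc
The DLX1 stretch holds the motif 1 time and the DLX2 stretch does not hold it. Of 35116 RefSeq promoters of this length 47.4% hold it on either strand, and of 57 promoters of 36 members, the ones found in the table, 24 do (42.1%).

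OTX1, a paired-like factor of forebrain and sense organs that is also used by some blood progenitors, fell. Its brighter probe read 12.26 with siRNA-A, 12.17 with siRNA-B, 12.63 with control siRNA-1 and 12.69 with control siRNA-2. The groups did not overlap, with a log2FC of -0.45 (standard error 0.11, adjusted p = 0.311), a 1.37-fold reduction. The other OTX1 probe read 6.38, 6.41, 6.65 and 6.67 and was lower too, but was not called (log2FC -0.27, adjusted p = 0.596). OTX1 kept its direction in each of 12 alternatives, from -0.50 to -0.36, and its call in 3 of them.

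No other paired-like gene was called. PITX1, which specifies the hindlimb and acts in the pituitary, read 8.43 and 8.56 after knockdown and 8.86 and 8.89 in controls (log2FC -0.38, adjusted p = 0.439). Its other probe had overlapping groups and a log2FC of 0.01, so the probes of PITX1 disagree. PITX3, a factor of lens and dopamine neurons, had a log2FC of 0.11. ALX4, which shapes the face and skull, read 5.88, 5.73, 5.55 and 5.51, higher after knockdown without overlap and without a call (log2FC 0.27, adjusted p = 0.606). ALX1 was lower, without overlap, at a log2FC of -0.13 (adjusted p = 0.829).

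All 4 analysed IRX genes, which pattern heart, limb and nervous system, were lower without overlap after knockdown, as were 21.2% of all genes, but none was called, and IRX4 and IRX6 were above background on neither knockdown array. The log2FC of IRX3 and IRX5 stayed below 0 in each of 12 alternatives. IRX4 and IRX6 were detected only on control arrays, where they read higher, so no direction is read from them. IRX3 read 12.74 with siRNA-A, 13.03 with siRNA-B and 13.12 and 13.25 in controls (log2FC -0.30, standard error 0.13, adjusted p = 0.618). IRX5, described beyond the rule for named genes after its values were seen, read 11.45, 11.74, 11.82 and 11.90 (log2FC -0.26, adjusted p = 0.688). In both genes the siRNA-A array was the lower one, by 0.29, and log2FC without siRNA-A was -0.16 and -0.11. IRX4 and IRX6, with 1 and 2 control arrays well above background, had log2FC of -0.09 and -0.14. Against the lowest signal well above background on the knockdown arrays, the lower bound on the control level was 1.06-fold for IRX6 and 0.985-fold for IRX4.

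**Figure D3:**
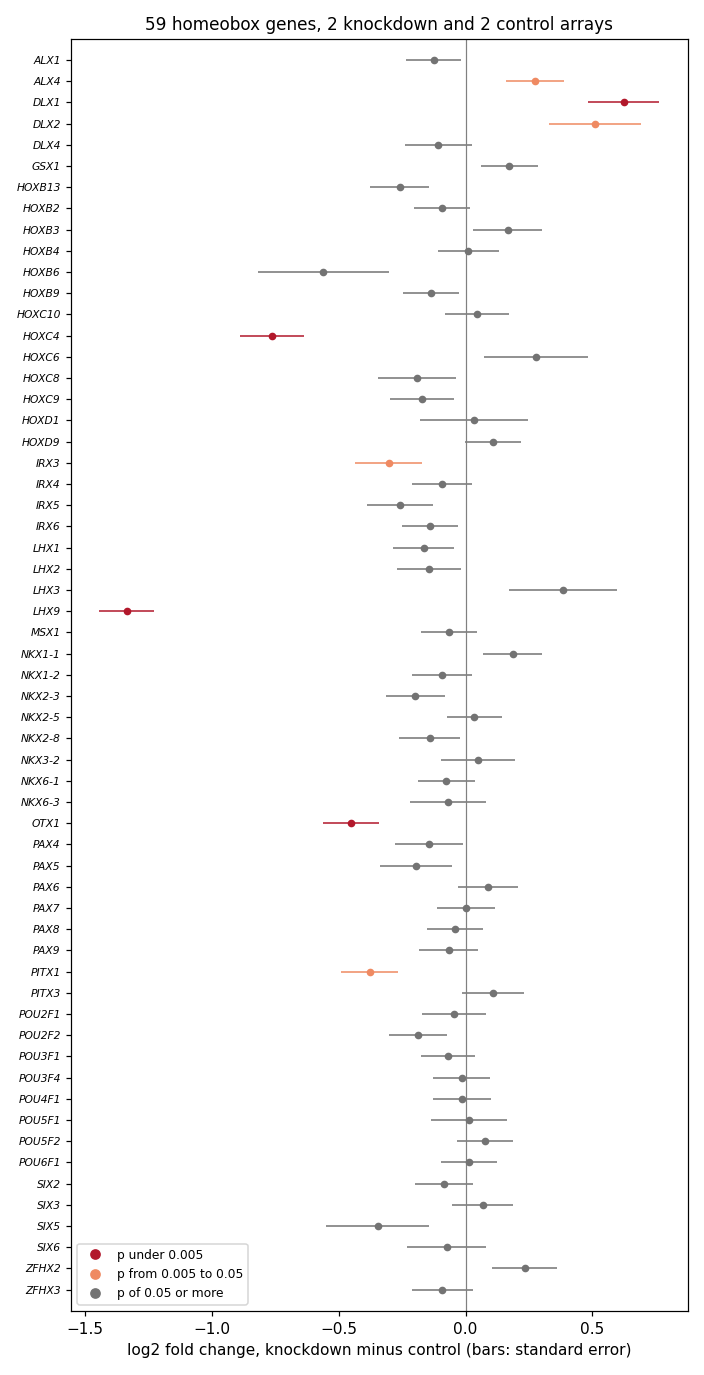
Log2FC of knockdown against control on the horizontal axis is shown for 59 of 63 members, sorted by family, with bars for the standard error from limma. LHX9 lies furthest to the left at -1.34, DLX1 furthest to the right at 0.62, and most genes lie close to 0.

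The NKX genes hold tissue-forming factors such as NKX2-5 of the heart, NKX2-3 of gut and spleen vessels and NKX3-2 of cartilage. None of 9 analysed members reached an unadjusted p under 0.05 in limma, and log2FC ranged from -0.20 (NKX2-3) to 0.18 (NKX1-1). The NKX2-5 probe read 15.63, 15.57, 15.54 and 15.59, without saturation, and its log2FC of 0.03 had a 95% interval from -0.22 to 0.28. NKX1-2, NKX2-8, NKX3-2 and NKX6-3 were above background on all arrays with overlapping groups. NKX6-1 was above background on both controls and on neither knockdown array, and its groups overlapped, control siRNA-1 and siRNA-A both reading 5.36 (log2FC -0.08, adjusted p = 0.912). GSX1, a factor of the ventral forebrain, was higher without overlap (log2FC 0.17), and MSX1, a factor of limb and tooth that was measured on 10 spots, lower (log2FC -0.07), both with a p above 0.05.

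PAX genes hold a paired domain, in most of them with a full or partial homeodomain, and include PAX5, which sets B cell identity. All 6 analysed members, PAX4, PAX5, PAX6, PAX7, PAX8 and PAX9, had overlapping groups and log2FC between -0.20 and 0.09. PAX5 read 5.91, 6.27, 6.36 and 6.21 (log2FC -0.20, adjusted p = 0.797). Products of the sine oculis genes act with EYA and DACH proteins in eye, muscle and kidney. SIX5, a member described after its values were seen, read 10.60 with siRNA-A, 11.30 with siRNA-B and 11.37 and 11.23 in controls, with a log2FC of -0.35 (adjusted p = 0.741) that was 0.0020 without siRNA-A. SIX2 and SIX3 had log2FC of -0.09 and 0.07, and SIX6 was well above background on 1 control array only, with overlapping groups. Of 5 EYA and DACH partners and PAXIP1 analysed, DACH1 was called. It read 12.66 and 12.86 after knockdown and 13.18 and 13.43 in controls (log2FC -0.54, adjusted p = 0.303).

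POU genes join a POU-specific domain to a homeodomain and include the octamer-binding factors of B cells and of pluripotent cells. None of 9 analysed members had an unadjusted p under 0.05, and log2FC ranged from -0.19 to 0.14. POU2F1, a broadly used octamer factor, read 11.32, 11.45, 11.31 and 11.56 (log2FC -0.05). POU2F2, the octamer factor of B cells, was lower without overlap at 7.09 and 6.99 against 7.16 and 7.29 (log2FC -0.19, adjusted p = 0.751), while its other probe overlapped with a log2FC of 0.06. POU5F1 had overlapping groups on both probes, and transcripts of its near-identical pseudogenes may share its signal. POU3F1 was lower without overlap at a log2FC of -0.07, POU5F2 higher at 0.08, and POU3F4, POU4F1 and POU6F1 had overlapping groups. Of 7 POU and co-repressor partners only HIPK2, a kinase that binds homeodomain proteins, was called, and it rose (log2FC 0.50, adjusted p = 0.279). ZFHX3, a large factor with several homeodomains, had a log2FC of -0.09 with overlapping groups, and ZFHX2 was well above background on 1 array.

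Against both controls, 33 members were lower (52.4%, against 47.0% of all genes) and 15 higher (23.8% against 24.5%) in the siRNA-A array. In the siRNA-B array 24 were lower (38.1% against 32.1%) and 19 higher (30.2% against 38.3%). The siRNA-A array was lower than the siRNA-B array in 69.8% of members and in 63.9% of all genes, with a median difference of -0.10 over members and -0.07 over all genes. In 4 members, DLX2, HOXB6, HOXD1 and SIX5, the knockdown arrays were over 0.5 apart, and in 2, HOXC6 and LHX3, the control arrays were. With 1 array each, siRNA-A and siRNA-B were not tested against each other. Of 14 pairs of members with probes less than 200 kb apart, 7 had log2FC of the same sign, among them DLX1 and DLX2.

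The 10 members with the brightest probes were NKX2-5, IRX3, OTX1, IRX5, POU2F1, SIX5, LHX3, DLX1, NKX1-2 and PITX3, and brightness here is a property of probe and transcript together. Of 63 analysed members, 54 were well above background on all 4 arrays, which is 85.7% against 88.3% of all analysed genes, and 0 were saturated. The filter raises both shares, since 0 left-out spots were well above background on any array. Counted over the whole set, these are 54 of 109 genes. Of all non-control spots 70.0% to 74.3% were well above background per array, a share of spots and not of genes. The remaining 46 genes of the set had no probe with a weight above 0 on all 4 arrays, and 0 of their 49 spots were well above background on any array. They included DLX3, DLX5, DLX6, GSX2, HOXB1, HOXB5, HOXB7, HOXB8, HOXC5, HOXC11, HOXC12, HOXC13, HOXD3, HOXD4, HOXD8, HOXD10, HOXD11, HOXD12, HOXD13, IRX1, IRX2, LHX4, LHX5, LHX6, LHX8, MSX2, NKX2-1, NKX2-2, NKX2-4, NKX2-6, NKX6-2, OTX2, PAX1, PAX2, PAX3, POU1F1, POU2F3, POU3F2, POU3F3, POU4F2, POU4F3, PRRX1, PRRX2, SIX4 and ZFHX4. Low transcript and a poor probe cannot be told apart for these genes.

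A further list held 84 homeobox genes of other families, of which 64 were analysed. At an unadjusted p under 0.05 in limma 3 of them were lower and 2 higher, together 7.81% against 8.00% of all genes. TSHZ3, a zinc finger homeobox factor, was the only one called, with 7.92 and 8.20 after knockdown against 7.37 and 7.30 in controls (log2FC 0.73, adjusted p = 0.138). The median log2FC of this list was -0.02, the same as that of all genes to this precision.

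**Figure D4:**
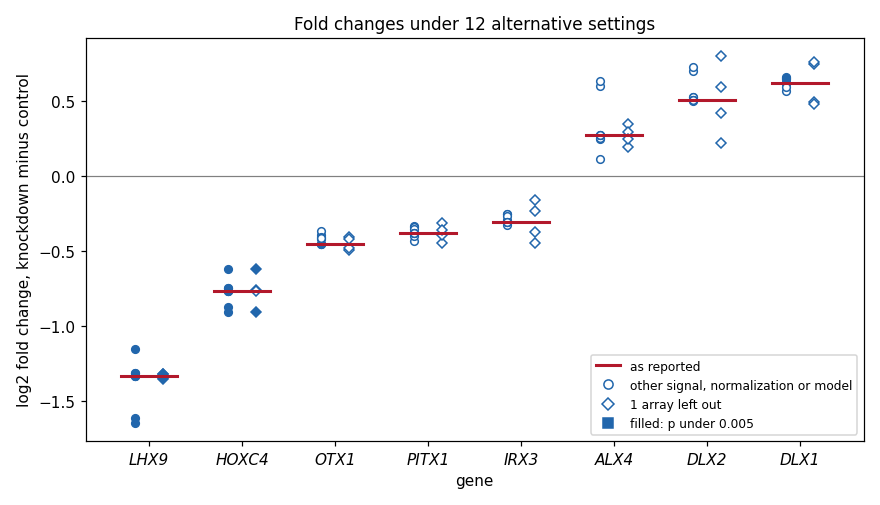
Log2FC on the vertical axis is shown for 8 genes with an unadjusted p under 0.05, as reported (bar), with another signal, normalization or model (circles) and with 1 array left out (diamonds), filled where p was under 0.005. LHX9 is filled throughout between -1.65 and -1.16, while DLX1 is open in each setting with an array left out.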

How the data were processed

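RNA of THP1 cells was hybridised to 4 single-colour Agilent arrays, whose spots the authors quantified with Agilent Feature Extraction 10.5.1.1 per the labels. The authors deposited an intensity per spot, equal to the median pixel signal in 100% of spots, without background correction or normalization between arrays. The quality weight of each spot is a score that the authors deposited (0, 0.5 or 1), and how it was set is not given in the sources used here. Spots with a weight above 0 on all arrays (33323 of 43118 after removal of 1377 control spots) were used on the log2 scale.

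Identical spots were averaged to 26219 probes and fitted in R 4.3.3 by limma 3.58.1 with the weights and no covariates, on unnormalized values as in the study's methods. Adjusted p are Benjamini-Hochberg over all probes, and all p are two-sided. Members were found by gene name and represented by their brightest probe, and counts over all genes use 17938 genes. Of the 63 members 57 were matched to RefSeq by accession, with the same symbol in 57. Named with a change were members with an unadjusted p under 0.05 and those of a family with a called member. Members and lists were chosen with earlier results of these data known. Scanner tables held 61 columns, of which 52 were not used. On simulated data of 26219 probes at this design, 100 of 100 probes changed by 1 on the log2 scale and 54 of 100 changed by 0.5 had a p under 0.005, as did 0.488% of unchanged probes. The simulated variances came from limma's own fit and the simulated arrays were independent. The share of unchanged probes was thus largely fixed in advance and does not test these assumptions on the real arrays. Alternatives were background-subtracted signal (unscaled, or scaled to the 75th percentile), quantile, cyclic loess and normexp normalization, no weights, a variance trend, a filter on dim probes, the mean of a gene's probes and leaving out each array. A group reduced to 1 array was given the spread of the other group. Some genes of the set and of the lists are not reported by name here, and counts include them.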

Additional observations from a re-analysis of the deposited data

How the results depend on the processing

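The number of arrays limits the precision. Of 4 called members 1 had an adjusted p under 0.05, and 0 of 63 members had one with background-subtracted signal, normalization or 1 array left out. Leaving out 1 array gave 1 to 3 calls, namely LHX9 alone without either control, LHX9 and HOXC4 without siRNA-A, and these with HOXB6 without siRNA-B. HOXC4 lost its call without control siRNA-1 (-0.76) or control siRNA-2 (-0.77). Members with an unadjusted p under 0.05 were 16 instead of 9 with either background-subtracted signal, with 5 higher and 11 lower against 4 and 5, and 6 to 14 with 1 array left out (14 without siRNA-B, 2 higher and 12 lower, and 6 without control siRNA-2). IRX6 was called lower with both background-subtracted signals and NKX6-1 with the unscaled one, and each was above background on the control arrays only. PITX1 was called lower with normexp (log2FC -0.33), and the filter on dim probes gave 5 calls instead of 4. Without siRNA-B 33 members were lower without overlap (52.4% against 47.0% of all genes) and 15 higher (23.8% against 24.5%). Without siRNA-A 24 were lower (38.1% against 32.1%) and 19 higher (30.2% against 38.3%). Without a control array 28 or 29 were lower and 16 higher. Fewer arrays can only overlap less often. The share over all genes is not given for the other counts in this paragraph. The median log2FC was -0.13 with the unscaled background-subtracted signal, -0.03 with normexp and -0.0099 without siRNA-A, where the median of all genes was -0.06, 0.0021 and 0.012. With 1 array left out the log2FC changed sign for DLX4 (-0.26 to 0.042), HOXC10 (-0.069 to 0.16), HOXC6 (-0.049 to 0.60), HOXC8 (-0.42 to 0.034) and SIX5 (-0.70 to 0.0020). The cause of these shifts was not tested, and no other member named with a change turned sign in the alternatives run. No paired analysis was possible because the groups share no replicate numbers.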
